A study of Danio rerio with 4 samples.

Results

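Cyclins, cyclin-dependent kinases (CDKs) and the mitotic kinases that act with them were compared between ovary and testis of adult zebrafish. Members were all genes whose symbol names a cyclin, a CDK, a CDK-like kinase or CDK inhibitor, or a gene of the cdc25, cdc20, wee, plk, aurk, bub, mad2l and ttk families. This rule found 96 of the 32520 genes in the count table. Of the 96, 14 carry such a name as binding partners or other proteins, for example ccnb1ip1, and were kept as a class of their own. The symbols cdkn2aip and cdkn2aipnl are also of this kind but were counted in the class of CDK inhibitors. The rule used no measured value.

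The gonads came from adult fish of the AB strain, a laboratory line of Danio rerio, 1 fish per library. The ovary group was 2 untreated females and the testis group 2 untreated males, the null controls of a study that gave other fish exemestane. Exemestane inhibits aromatase, the enzyme that makes oestrogen. Each gonad is a mixture of germ cells and somatic cells, so fewer cells of a type and less RNA per cell cannot be told apart.

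CDKs are kinases, most of which work only when bound to a cyclin, and the cyclin that is made or destroyed decides when they act. Cyclin D with CDK4 or CDK6 and cyclin E with CDK2 bring a cell towards DNA replication, whereas cyclin B with CDK1 drives it into division. Wee kinases hold CDK1 inactive by phosphorylation and Cdc25 phosphatases release it. Polo and Aurora kinases build the spindle, and the spindle checkpoint delays the ubiquitin ligase APC/C, which Cdc20 activates to destroy cyclin B. In the ovary these proteins are known for a second task. Fish and frog oocytes arrest in meiosis, and a complex of cyclin B and CDK1, called maturation-promoting factor, is the trigger that resumes it. The egg also stores cyclin mRNA for the rapid divisions of the embryo. In the testis, spermatogonia divide by mitosis and spermatocytes by meiosis throughout adult life.

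Libraries held 26137839 and 18085251 counts in ovary and 11554811 and 12382674 counts in testis, so both ovaries were deeper. Levels are given as CPM, the count of a gene relative to library size after scaling between libraries with edgeR (TMM). The scaling factors also differed by sex, at 0.72 and 0.82 in ovary and 1.32 and 1.27 in testis. Ovary markers (6 of 6 genes) passed the threshold as higher in ovary and testis markers (6 of 6 found) as higher in testis. Genes of spermatocytes summed to 13.5 and 15.3 CPM in ovary and to 1732 and 1587 CPM in testis, and tekt1, a gene of the sperm tail, was at 0 in both ovaries. Of the 3 genes found for spermatogonia and early germ cells, 2 were higher in ovary and 1 in testis, and their sums were 273 and 374 CPM in ovary and 22.3 and 29.3 CPM in testis. Sertoli cell genes summed to 9.30 and 19.8 CPM against 725 and 669 CPM. Of the 4 Leydig cell genes, 3 were higher in testis and 1 in ovary. They summed to 233 and 275 CPM against 1658 and 594 CPM, so the testes differed in them. The testes also differed in the 5 liver genes, of which 2 were higher in testis and 0 in ovary. Those summed to 5.81 and 1.61 CPM in ovary and to 23.0 and 5.93 CPM in testis. The testes differed in the lowest levels of transcripts that are abundant in ovary. Of the 100 genes most abundant in ovary, the 10th percentile was, relative to the ovaries, 0.319% for testis replicate 1 and 0.0042% for testis replicate 2. Every ovary-biased member lay above those shares in the testes, the lowest being ccnp at 0.708% and 0.401%. Their median was 20.5% in testis replicate 1 and 24.3% in testis replicate 2. Most of the 100 genes lie above a 10th percentile by definition, so this comparison sets no member apart. The part that the makeup of the gonads plays in the results below was not tested.

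Cell cycle regulators leaned towards the ovary, whereas the genes tested as a whole leaned towards the testis. Of the 91 members with enough counts to test, 41 were female-biased, or higher in ovary, and 23 were male-biased at an edgeR adjusted p under 0.05. That is 45.1% and 25.3% of members, where 28.5% and 36.7% of all 21815 tested genes were called in those directions. The other 27 members did not pass. With the libraries scaled by their totals alone the split was 28 female-biased to 33 male-biased members, against 17.6% and 47.6% of all genes. In 50 members both ovaries lay above both testes and in 29 both testes lay above both ovaries, against 36.6% and 48.1% of all genes. In 12 the sexes overlapped. The sexes did not overlap in any of the 41 and 23 called members, nor in 6216 of 6217 and 8000 of 8002 called genes. For a called gene, the lack of overlap therefore adds nothing to the call.

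The lean of the members towards ovary was seen with other settings as well, each with its own share of all genes. Members tested numbered 93 without either ovary library, 92 without either testis library and 91 elsewhere, except where given. Without ovary replicate 1, 37 members were female-biased and 17 male-biased (21.5% and 23.2% of all genes), and without ovary replicate 2, 36 and 18 (24.7% and 26.4%). Without testis replicate 1 the members numbered 36 and 21 (23.7% and 31.7%), and without testis replicate 2, 39 and 21 (24.7% and 32.1%). DESeq2's Wald test gave 42 and 24 (30.1% and 34.2%). With replicate number as a block there were 39 and 21 (25.7% and 33%), and with the legacy quasi-likelihood fit 41 and 23 (28.3% and 36%). Requiring 10 counts in each library gave 33 and 21 of the 82 members then tested (29.8% and 29.9%). These include new calls, since of the 64 members called in the main fit 57 were fitted there and 49 still called. Counts thinned to the depth of the smallest library gave 39 and 24 (27.8% and 36.9%). An edgeR adjusted p under 0.01 left 33 and 16 (20.9% and 24.1%). In the main fit 65.2% of all genes and 70.3% of members were called in either direction.

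The median log2 fold change of testis against ovary was -0.56 for the members and 0.45 for all tested genes, a distance of -1.01. Scaling by totals alone moved both medians up, that of all genes by 0.74 to 1.19 and that of the members to 0.20. The sign of the members' median thus depended on the scaling, while the distance stayed at -0.99. The distance was -0.50 over the genes that reached 10 counts in each library. Female-biased members had a median log2 fold change of -2.20, and 11 of the 41 (26.8%) differed at least 8-fold, where female-biased genes as a whole had a median of -1.91 and 20.5% differed by that much. Male-biased members had a median of 2.94, and 11 of the 23 (47.8%) differed at least 8-fold, where male-biased genes as a whole stood higher, at 3.61 and 62.8%. Between replicates of a sex, the median ratio of the higher to the lower library was 1.18 for the ovary pair (90 members) and 1.23 for the testis pair (91 members). The ratio was over 2 for 7 and 5 members, and reached 6.99 for cdc25d in ovary and 3.41 for plk2 ENSDARG00000090752 in testis. The folds above are of called members only, so the sets of members differ.

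**Figure D1:**
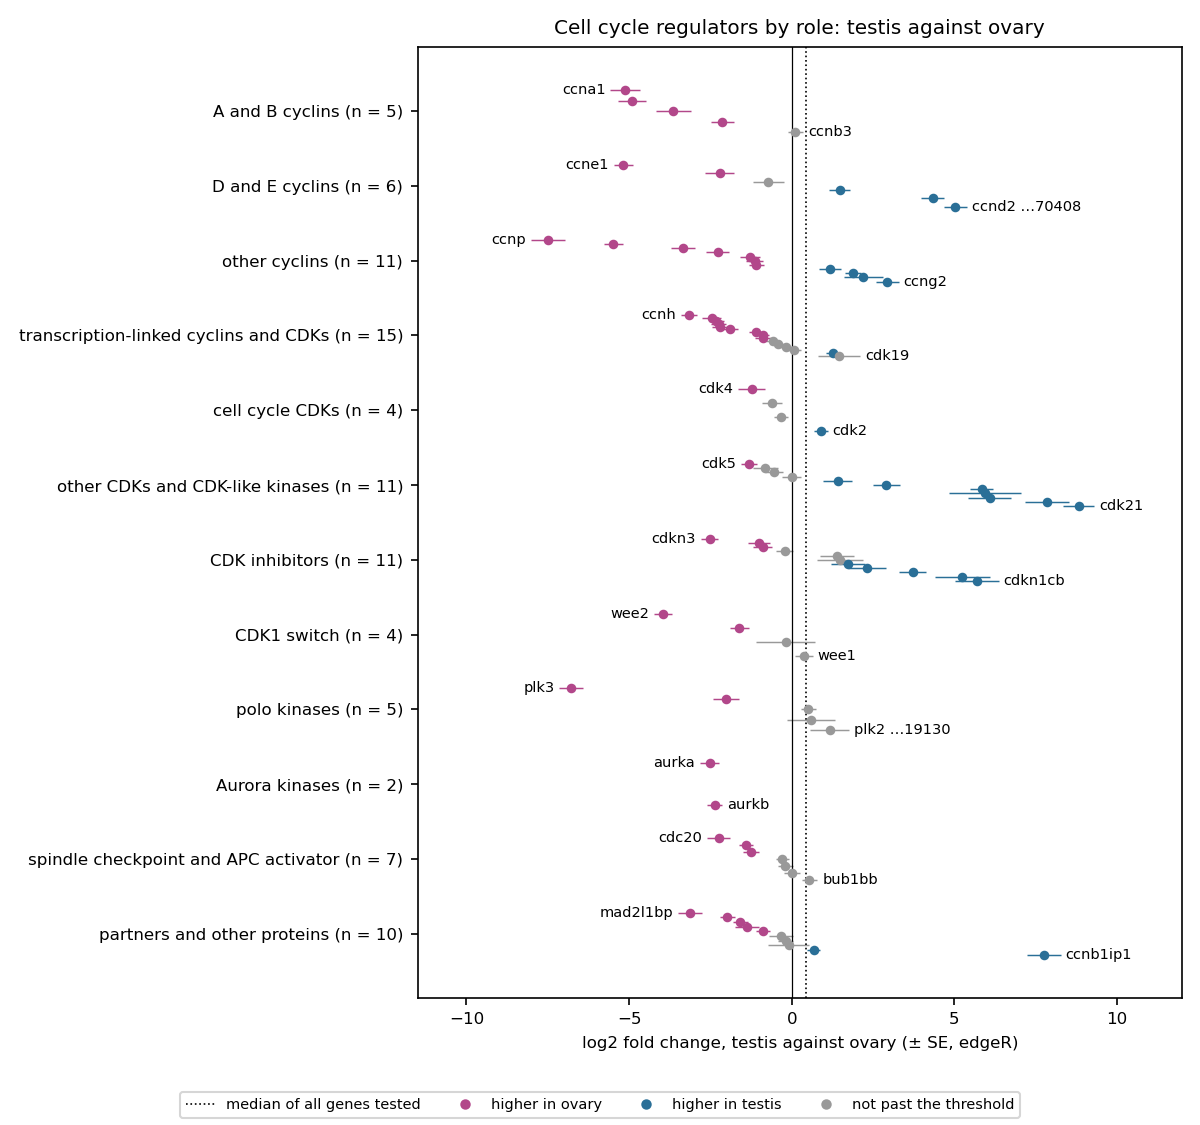
Fold change of each tested member by role. The x axis is the log2 fold change of testis against ovary, points are genes with bars of 1 SE, colours give the edgeR call at an adjusted p under 0.05, and the dotted line is the median of all tested genes (0.45). A and B cyclins run from -5.12 for ccna1 to 0.11 for ccnb3, which lies just right of 0, whereas the other CDKs reach 8.83 at cdk21.

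The cyclins that drive division were examined first. Of the 5 A and B cyclins, 4 were female-biased and 0 were male-biased (80.0% and 0%, beside 28.5% and 36.7% of all genes). Cyclin B1, ccnb1 (ENSDARG00000051923), is the classical partner of CDK1. It had 2796 and 2590 CPM in ovary and 168 and 264 CPM in testis, a log2 fold change of -3.64 with an SE of 0.54 (edgeR adjusted p 0.00209) or 12.5-fold. Cyclin B2, ccnb2 (ENSDARG00000036180), the second B-type partner of CDK1, differed more. It had 1551 and 1620 CPM against 46.4 and 58.8 CPM, a log2 fold change of -4.91 with an SE of 0.42 (edgeR adjusted p 0.00035). Both ovaries were thus far above both testes for each of these cyclins, while the testes themselves differed 1.57-fold in ccnb1.

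Cyclin A1, ccna1 (ENSDARG00000043236), is known in mouse as a male germ cell cyclin needed for the meiotic divisions of spermatocytes, and in frog as a cyclin of the egg. In these zebrafish its mRNA was at 1776 and 1870 CPM in ovary and at 45.6 and 59.0 CPM in testis, 34.9-fold higher in ovary (log2 fold change -5.12 ± 0.45, SE, edgeR adjusted p 0.000378). Cyclin A2, ccna2 (ENSDARG00000011094), the A-type cyclin of somatic cells, had 1262 and 1227 CPM against 255 and 310 CPM, a smaller difference of 4.40-fold. Cyclin B3 was the exception. ccnb3 (ENSDARG00000034855), a cyclin needed in mouse oocytes to leave the first meiotic division, had 109 and 119 CPM in ovary and 106 and 141 CPM in testis. The sexes overlapped, and the log2 fold change was 0.11 with an SE of 0.23 (edgeR adjusted p 0.684). With library size scaling ccnb3 passed as male-biased (0.85, edgeR adjusted p 0.0217). Summed, the 5 genes reached 7494 and 7427 CPM in ovary and 622 and 833 CPM in testis.

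D and E cyclins, which act before and at the start of S phase, divided between the sexes. Of 6 tested genes, 2 were female-biased and 3 were male-biased (beside 28.5% and 36.7% of all genes). The pair of E cyclins, partners of CDK2, went opposite ways. Cyclin E1, ccne1 (ENSDARG00000098622), had 514 and 613 CPM in ovary and 16.5 and 14.7 CPM in testis (log2 fold change -5.17 ± 0.30, SE, edgeR adjusted p 0.000142). Cyclin E2, ccne2 (ENSDARG00000098529), had 5.97 and 3.35 CPM in ovary and 87.0 and 102 CPM in testis (log2 fold change 4.33 ± 0.36, SE, edgeR adjusted p 0.000321). No library of one sex reached the levels of the other for either gene.

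Zebrafish kept duplicates of many genes, and a D cyclin was such a case. A pair of IDs carries the symbol ccnd2, a D-type cyclin that answers growth signals. ENSDARG00000051748 had 37.8 and 48.5 CPM in ovary and 13.1 and 5.42 CPM in testis, and was female-biased by -2.22 on the log2 scale with an SE of 0.46 (edgeR adjusted p 0.00697), or by -3.00 without testis replicate 1. ENSDARG00000070408 had 1.06 and 1.34 CPM in ovary and 40.5 and 37.9 CPM in testis, and was male-biased by 5.03 ± 0.35 (SE, edgeR adjusted p 0.000214). The copies therefore had opposite bias. ccnd3 had 23.1 and 16.7 CPM in ovary and 68.0 and 43.1 CPM in testis, a log2 fold change of 1.48 with an SE of 0.32 (edgeR adjusted p 0.00835), but it did not pass without ovary replicate 2 (1.19, edgeR adjusted p 0.0630). ccnd1 was lower in both testes, at 10.3 and 5.04 CPM against 14.1 and 11.1 CPM, and did not pass (log2 fold change -0.72 ± 0.49, SE, edgeR adjusted p 0.233). With library size scaling its log2 fold change was 0.04. The remaining gene, ccndx, had at most 7 counts in any library and was not tested.

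All 11 of the other cyclins passed the threshold, as did 65.2% of all genes. Of the 11, 7 were female-biased and 4 male-biased (63.6% and 36.4%, beside 28.5% and 36.7% of all genes). The most female-biased member of all was ccnp (ENSDARG00000055250). It had 1398 and 1337 CPM in ovary and 9.69 and 5.48 CPM in testis, a log2 fold change of -7.49 with an SE of 0.52 (edgeR adjusted p 0.00021). In this class ccnjl (ENSDARG00000077116) came next, at 421 and 321 CPM against 8.05 and 8.41 CPM (log2 fold change -5.49 ± 0.29, SE, edgeR adjusted p 0.000126), and its relative ccnj had 142 and 156 CPM against 9.76 and 19.6 CPM. The log2 fold change of ccnj was -3.34, or -3.94 without testis replicate 2. All ovary values of these 3 genes lay above all testis values.

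Related cyclins again split. The G cyclins are atypical cyclins, of which cyclin G1 is a target of p53. ccng1 had 804 and 717 CPM in ovary and 120 and 194 CPM in testis, 4.84-fold higher in ovary. ccng2 (ENSDARG00000017602) had 8.14 and 15.3 CPM in ovary and 94.4 and 84.8 CPM in testis, 7.65-fold higher in testis (edgeR adjusted p 0.00102). Of the I cyclins, ccni was male-biased at 392 and 315 CPM against 99.8 and 92.9 CPM. ccni2 was female-biased at 44.4 and 70.5 CPM against 26.6 and 20.97 CPM, and did not pass without ovary replicate 2 (log2 fold change -0.98, edgeR adjusted p 0.0540) or with library size scaling (-0.55). Cyclin F, which is also the F-box subunit of an SCF ubiquitin ligase, was male-biased with 183 and 229 CPM against 116 and 64.7 CPM (log2 fold change 1.19 ± 0.33, SE, edgeR adjusted p 0.0206). ccnf did not pass without ovary replicate 2 (0.73, edgeR adjusted p 0.0830) or without testis replicate 2 (0.997, edgeR adjusted p 0.0619).

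Cyclin Y, a partner of CDK14, was at 1.06 and 1.81 CPM of ccny in ovary and at 7.60 and 5.61 CPM in testis. Its call (log2 fold change 2.21 ± 0.61, SE, edgeR adjusted p 0.0201) was lost without ovary replicate 1 (1.88, edgeR adjusted p 0.0790) and without testis replicate 1 (1.97, edgeR adjusted p 0.0751). The like gene ccnyl1 had the opposite bias, with 40.5 and 37.7 CPM in ovary and 16.2 and 19.2 CPM in testis. CDK10's partner ccnq had 90.4 and 92.4 CPM against 36.7 and 49.0 CPM. These calls of ccnyl1 and ccnq did not pass with library size scaling, where their log2 fold changes were -0.40 and -0.36.

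**Figure D2:**
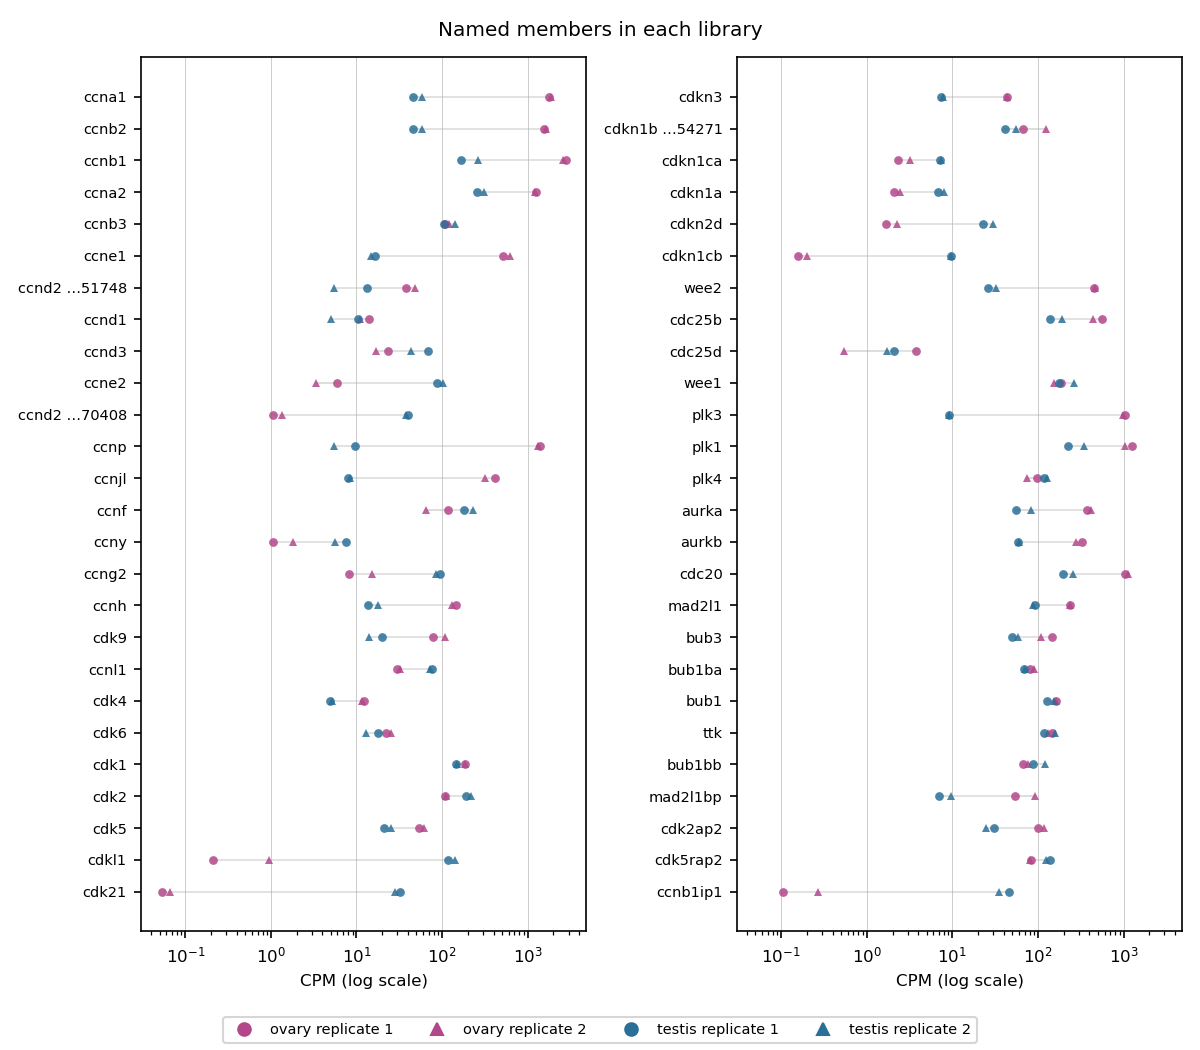
Level of the named members in each library, in CPM on a log axis, with circles for replicate 1 and triangles for replicate 2. Ovary and testis points of ccna1, ccne1, ccnp, wee2 and plk3 stand far apart, whereas those of ccnb3, wee1 and ttk overlap, and cdk21 and cdkl1 lie under 1 CPM in the ovaries only.

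The CDKs were divided into those of the cell cycle and the rest. Of the 4 cell cycle CDKs, 1 was female-biased and 1 was male-biased (25.0% each, beside 28.5% and 36.7% of all genes). cdk1 (ENSDARG00000087554), the kinase of entry into division, had 186 and 185 CPM in ovary and 146 and 150 CPM in testis. Both ovaries were higher, but the log2 fold change of -0.33 ± 0.21 did not pass (SE, edgeR adjusted p 0.205), and it was 0.41 with library size scaling and 0.09 over the genes that reached 10 counts in each library. cdk2 (ENSDARG00000026577), the partner of cyclin E and a kinase of meiotic chromosomes in mouse, had 108 and 112 CPM in ovary and 192 and 216 CPM in testis (log2 fold change 0.90 ± 0.21, SE, edgeR adjusted p 0.0116). Its call was lost without either ovary (edgeR adjusted p 0.0554 and 0.0546), with log2 fold changes of 0.88 and 0.83.

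For the partners of cyclin D, cdk4 had 12.1 and 11.5 CPM in ovary and 4.85 and 5.23 CPM in testis, and cdk6 had 22.0 and 25.2 CPM against 18.1 and 13.002 CPM. The former passed as female-biased (log2 fold change -1.23 ± 0.42, SE, edgeR adjusted p 0.0409) but not with any library left out (cdk4 edgeR adjusted p 0.0684 to 0.151) nor with library size scaling (log2 fold change -0.49). The latter did not pass (-0.60 ± 0.32, SE, edgeR adjusted p 0.137), and cdk6 was at 0.14 with library size scaling.

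Of the 11 other CDKs and CDK-like kinases, 7 were male-biased and 1 was female-biased (63.6% and 9.1%, beside 36.7% and 28.5% of all genes). The median log2 fold change was 2.90, beside 0.45 for all tested genes. cdk21 (ENSDARG00000030163) had 494 and 446 counts in the testes, or 32.3 and 28.4 CPM, and 1 count in each ovary. Pooled per sex, the ratio was 514 (exact binomial 95% interval 142 to 4248, which covers counting error only; edgeR adjusted p 9.73e-05). cdkl1 (ENSDARG00000017329), a kinase linked to cilia in worms, had 118 and 142 CPM in testis and 0.211 and 0.939 CPM in ovary. Its log2 fold change was 7.85 with an SE of 0.67 (edgeR adjusted p 0.000348), and 7.11 without ovary replicate 1 and 9.13 without ovary replicate 2.

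In this class cdk20 (ENSDARG00000003867), a kinase linked to cilium assembly, had 49.8 and 64.1 CPM in testis and 0.845 and 1.14 CPM in ovary, 57.2-fold higher in testis (edgeR adjusted p 0.000159). cdk15 had 13.6 and 11.3 CPM against 0.211 and 0.134 CPM. cdk18 had 78 and 51 counts in the testes and 0 and 2 counts in the ovaries, a pooled ratio of 70.5 (exact binomial 95% interval 19.1 to 588). Its fitted log2 fold change of 5.94 was 9.10 without ovary replicate 2 and 4.90 without ovary replicate 1. cdk14, the partner of cyclin Y, had 6.23 and 12.9 CPM in ovary and 22.1 and 28.7 CPM in testis, and did not pass without ovary replicate 1 (log2 fold change 0.98, edgeR adjusted p 0.0781) or testis replicate 2 (1.20, edgeR adjusted p 0.128).

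The female-biased gene of this class was cdk5 (ENSDARG00000056683), a kinase best known from neurons, with 53.5 and 61.3 CPM in ovary and 21.02 and 25.2 CPM in testis. Its log2 fold change was -1.31 with an SE of 0.24 (edgeR adjusted p 0.00445), and it did not pass with library size scaling (-0.58, edgeR adjusted p 0.0879). cdk10, cdk16 and cdk17 did not pass. cdk16 had 34.3 and 47.3 CPM in ovary and 32.6 and 48.8 CPM in testis. For cdk10 the call turned to female-biased without testis replicate 2 (log2 fold change -1.37, edgeR adjusted p 0.0385).

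Cyclins and CDKs that act on RNA polymerase II and splicing were mostly higher in ovary. Of 15 tested genes, 9 were female-biased and 1 was male-biased (60.0% and 6.7%, beside 28.5% and 36.7% of all genes). Cyclin H and CDK7 together activate other CDKs and belong to the transcription factor TFIIH. ccnh (ENSDARG00000007657) had 147 and 131 CPM in ovary and 13.6 and 17.7 CPM in testis (log2 fold change -3.16 ± 0.25, SE, edgeR adjusted p 0.000285), and cdk7 had 71.9 and 78.5 CPM against 15.1 and 15.04 CPM. Both partners thus had the same bias.

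CDK9 with cyclin T releases paused polymerase. cdk9 (ENSDARG00000044811) had 79.1 and 107 CPM in ovary and 19.8 and 14.0 CPM in testis, 5.505-fold higher in ovary (edgeR adjusted p 0.000952). A pair of IDs carries the symbol ccnt2, of which ENSDARG00000036510 had 368 and 360 CPM against 69.8 and 88.5 CPM and ENSDARG00000036685 had 101 and 92.7 CPM against 54.1 and 49.97 CPM. The call of ccnt2 ENSDARG00000036685 was lost without ovary replicate 1 (log2 fold change -0.82, edgeR adjusted p 0.0523), with library size scaling (-0.15, edgeR adjusted p 0.534) and with 10 counts required in each library (-0.48, edgeR adjusted p 0.0764). ccnt1 did not pass (log2 fold change -0.44 ± 0.23, SE, edgeR adjusted p 0.133). The Mediator kinase cdk8 was female-biased by -1.89 on the log2 scale, while its cyclin ccnc did not pass (-0.57 ± 0.22, SE, edgeR adjusted p 0.0633).

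Of the kinases that bind cyclin K, cdk13 was 2.16-fold higher in ovary, but not past the threshold with library size scaling (log2 fold change -0.37). Neither cdk12, at 304 and 233 CPM in ovary and 214 and 258 CPM in testis, nor ccnk, at 65.0 and 65.2 CPM against 62.7 and 73.9 CPM, passed, although library size scaling called ccnk male-biased (0.81, edgeR adjusted p 0.0169). Cyclin L, which works with CDK11 in splicing, split by copy. ccnl1 (ENSDARG00000055124) was male-biased with 77.3 and 71.5 CPM against 29.5 and 31.9 CPM (edgeR adjusted p 0.00331), and ccnl1b was female-biased with 201 and 252 CPM against 44.9 and 50.2 CPM. cdk11a was called female-biased with 101 and 69.5 CPM against 46.1 and 46.8 CPM (log2 fold change -0.87), but not without ovary replicate 1 (-0.57, edgeR adjusted p 0.110) or either testis library (edgeR adjusted p 0.0645 and 0.0597), nor with library size scaling (-0.12).

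CDK inhibitors bind CDKs and stop the cycle. The class of 11 genes also takes in cdkn3, cdkn2aip and cdkn2aipnl, which are not inhibitors of this kind. Of the 11, 5 were male-biased and 3, including cdkn3 and cdkn2aipnl, were female-biased (45.5% and 27.3%, beside 36.7% and 28.5% of all tested genes). The median log2 fold change was 1.49, beside 0.45 for all tested genes. The 3 INK4-type genes, which block CDK4 and CDK6, were each higher in both testes than in both ovaries, as were 48.1% of all tested genes. cdkn2d (ENSDARG00000094176) had 22.5 and 29.8 CPM in testis and 1.69 and 2.28 CPM in ovary, 13.2-fold higher in testis (edgeR adjusted p 0.000747). cdkn2a/b had 39 and 74 counts in the testes and 2 and 1 counts in the ovaries, a pooled ratio of 41.2 (exact binomial 95% interval 13.7 to 203). cdkn2c, at 17 and 15 counts in the testes and 4 and 8 counts in the ovaries, did not pass (edgeR adjusted p 0.103), but did with library size scaling (log2 fold change 2.21, edgeR adjusted p 0.0384).

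Of the Cip/Kip inhibitors, which act on several CDKs, the p57 gene cdkn1cb (ENSDARG00000104903) had 146 and 152 counts in the testes and 3 counts in each ovary. Its pooled ratio was 54.3 (exact binomial 95% interval 24.6 to 149; edgeR adjusted p 0.000911). Its copy cdkn1ca had 7.27 and 7.33 CPM in testis and 2.32 and 3.22 CPM in ovary and did not pass (edgeR adjusted p 0.0555). It passed with library size scaling (log2 fold change 2.13, edgeR adjusted p 0.0165) and with 10 counts required in each library (1.82, edgeR adjusted p 0.0143). cdkn1ca also passed without a filter (edgeR adjusted p 0.0490), with thinned counts (edgeR adjusted p 0.0450) and with DESeq2's Wald test (adjusted p 0.0311). With DESeq2 size factors, the replicate block or the legacy fit it did not pass. cdkn1a, the p21 gene, had 6.74 and 8.09 CPM in testis and 2.06 and 2.41 CPM in ovary. It passed in the main fit of all 4 libraries (edgeR adjusted p 0.0286), but not with the replicate block (log2 fold change 1.72, edgeR adjusted p 0.0570). The call of cdkn1a was also lost when any 1 library was left out, at log2 fold changes of 1.58 to 1.85. The IDs of the p27 gene cdkn1b were called in opposite directions. ENSDARG00000029018 had 1.74 and 3.76 CPM in ovary and 17.2 and 10.1 CPM in testis, and ENSDARG00000054271 had 67.4 and 125 CPM in ovary and 41.2 and 55.0 CPM in testis. Without testis replicate 1 neither ID of cdkn1b passed (edgeR adjusted p 0.0784 and 0.137), and the same held for the former without ovary replicate 1 (0.0611) and for the latter without ovary replicate 2 (0.129). The ovary call of cdkn1b ENSDARG00000054271 was also lost with library size scaling (log2 fold change -0.29, edgeR adjusted p 0.525), with 10 counts required in each library (-0.59, edgeR adjusted p 0.158) and with no filter (-1.05, edgeR adjusted p 0.0679).

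The most female-biased gene of this class is not an inhibitor by binding. cdkn3 (ENSDARG00000039130) encodes a phosphatase that acts on CDKs, and had 44.1 and 43.3 CPM in ovary and 7.33 and 7.84 CPM in testis (log2 fold change -2.52 ± 0.27, SE, edgeR adjusted p 0.000648). cdkn2aip and cdkn2aipnl carry the name of an inhibitor through a binding partner. The first did not pass, and the second passed as female-biased at 29.8 and 27.0 CPM against 12.6 and 17.8 CPM, but not without either ovary or without testis replicate 1 (edgeR adjusted p 0.118, 0.0579 and 0.173), nor with library size scaling (log2 fold change -0.16, edgeR adjusted p 0.662).

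At the switch that controls CDK1, 2 of 4 genes were female-biased and 0 were male-biased (beside 28.5% and 36.7% of all genes). wee2 (ENSDARG00000012718) is known in mammals as the Wee kinase of the oocyte, which keeps it arrested. It had 450 and 460 CPM in ovary and 26.1 and 32.1 CPM in testis, 15.6-fold higher in ovary (log2 fold change -3.97 ± 0.27, SE, edgeR adjusted p 0.000203). wee1 (ENSDARG00000093864), its counterpart in dividing somatic cells, had 187 and 154 CPM in ovary and 177 and 264 CPM in testis, and did not pass (log2 fold change 0.37 ± 0.28, SE, edgeR adjusted p 0.279). wee1 did pass as male-biased with library size scaling (1.12) and over the genes that reached 10 counts in each library (0.78). cdc25b (ENSDARG00000010792), the activating phosphatase that mouse oocytes need, had 562 and 445 CPM in ovary and 138 and 192 CPM in testis, 3.04-fold higher in ovary (edgeR adjusted p 0.00496). The low gene cdc25d had 71 and 8 counts in the ovaries and 32 and 27 counts in the testes, so its ovaries lay on either side of its testes.

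Among the mitotic kinases, the 2 Aurora kinases were both female-biased, as were 28.5% of all genes. aurka (ENSDARG00000012485), the kinase of spindle poles, had 372 and 421 CPM in ovary and 55.1 and 82.3 CPM in testis. aurkb (ENSDARG00000037640), the kinase of the chromosomal passenger complex, had 330 and 281 CPM against 58.2 and 60.0 CPM. They differed 5.76-fold and 5.17-fold (edgeR adjusted p 0.000925 and 0.000519).

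Of 5 polo kinase genes, 2 were female-biased and 0 were male-biased (40.0% and 0%, beside 28.5% and 36.7% of all genes). plk3 (ENSDARG00000038754), a polo kinase linked to stress responses, had 1033 and 976 CPM in ovary and 9.04 and 9.18 CPM in testis, 110-fold higher in ovary (log2 fold change -6.78 ± 0.37, SE, edgeR adjusted p 0.000127). plk1 (ENSDARG00000058471), the polo kinase of mitotic entry and of oocyte maturation in frog, had 1254 and 1039 CPM against 222 and 345 CPM, a 4.04-fold difference (edgeR adjusted p 0.00556). plk4, the kinase of centriole duplication, had 96.6 and 75.0 CPM in ovary and 117 and 128 CPM in testis. It was higher in both testes without passing (log2 fold change 0.51 ± 0.23, SE, edgeR adjusted p 0.0894), and passed with library size scaling (1.26). The IDs that share the symbol plk2 had at most 10.7 CPM in any library and did not pass, although library size scaling called ENSDARG00000019130 male-biased (1.87, edgeR adjusted p 0.0476).

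In the spindle checkpoint, the APC activator and a part of the checkpoint were female-biased. These were 3 of 7 genes, and 0 were male-biased (42.9% and 0%, beside 28.5% and 36.7% of all genes). cdc20 (ENSDARG00000100741) had 1032 and 1122 CPM in ovary and 196 and 259 CPM in testis, 4.74-fold higher in ovary (edgeR adjusted p 0.00255). mad2l1 (ENSDARG00000004713), which holds Cdc20 back, had 239 and 238 CPM against 91.7 and 88.7 CPM (edgeR adjusted p 0.00231). bub3, a kinetochore protein of the checkpoint, was 2.37-fold higher in ovary, and did not pass with library size scaling (log2 fold change -0.49, edgeR adjusted p 0.0832).

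The kinases of the checkpoint did not pass. For ttk (ENSDARG00000041361) the ovaries had 145 and 129 CPM and the testes 119 and 156 CPM, and for bub1 161 and 163 CPM against 129 and 155 CPM. Neither BubR1 copy passed, with bub1ba at 80.0 and 89.9 CPM in the ovaries against 68.2 and 70.7 CPM in the testes, and bub1bb at 67.6 and 76.3 CPM against 87.9 and 122 CPM. bub1bb passed as male-biased without testis replicate 1 (log2 fold change 0.75, edgeR adjusted p 0.0461). With library size scaling bub1bb (1.28, edgeR adjusted p 0.00703) and ttk (0.75, edgeR adjusted p 0.0241) passed as male-biased.

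Ratios between related genes within a library do not depend on how the library was scaled. Counts of ccne1 were 85.7 and 181 times those of ccne2 in the ovaries and 0.190 and 0.145 times in the testes, a shift of -9.55 on the log2 scale. The ratio of wee1 to wee2 was 0.414 and 0.335 in the ovaries and 6.75 and 8.22 in the testes. ccna1 stood at 1.41 and 1.52 times ccna2 in the ovaries and at 0.179 and 0.191 times in the testes. In cdk1 to cdk2 the change was smaller, from 1.73 and 1.66 to 0.758 and 0.694. The sexes did not overlap in 8 of 9 pairs, and overlapped in aurka to aurkb (1.13 and 1.496 against 0.947 and 1.37). Of single genes, 48.1% lay higher in both testes and 36.6% higher in both ovaries, so most genes did not overlap either. No such share was computed for other pairs of genes, and the pairs were chosen with earlier results of these data known. With 2 libraries a sex the smallest p an exact two-sided permutation test can give is 0.333 (0.375 after Benjamini-Hochberg adjustment over the 9 pairs), so none could pass. The ratios compare the sexes and not the levels of 2 genes, since transcript lengths were not used.

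**Figure D3:**
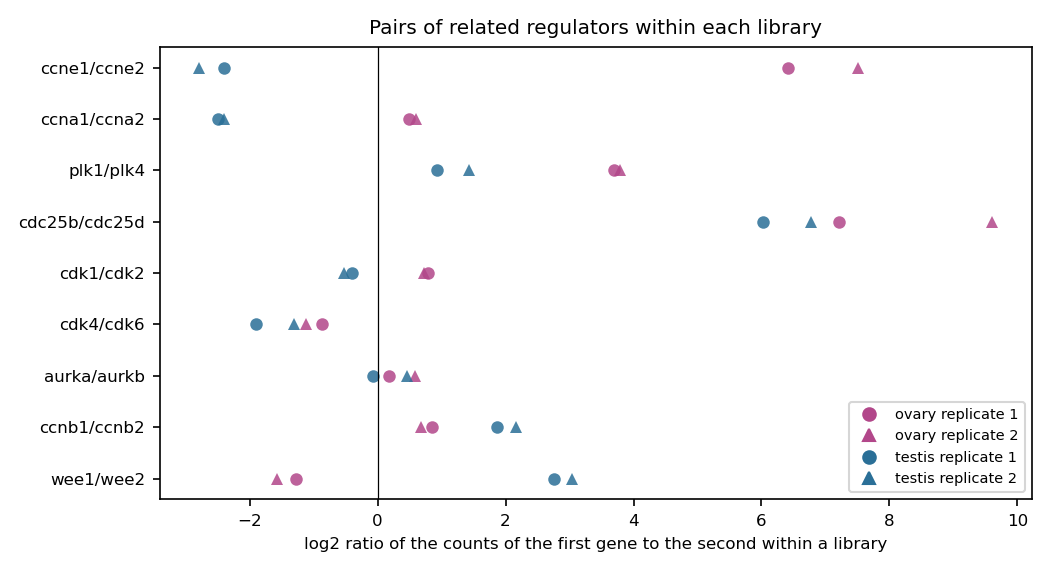
Log2 ratio of the counts of a pair of related genes within each library, circles for replicate 1 and triangles for replicate 2. The ovary and testis points lie on opposite sides of 0 for ccne1/ccne2, ccna1/ccna2, cdk1/cdk2 and wee1/wee2, and overlap for aurka/aurkb.

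Binding partners and other proteins that carry the name of a cyclin, kinase or checkpoint protein were described apart. ccnb1ip1 (ENSDARG00000104639) is not a cyclin but the HEI10 protein, which in mouse marks the sites of meiotic crossovers. It had 705 and 543 counts in the testes and 2 and 4 counts in the ovaries, a log2 fold change of 7.75 with an SE of 0.53 (edgeR adjusted p 0.000193), or 8.40 without ovary replicate 2. mad2l1bp (ENSDARG00000104943), the protein that silences Mad2, had 53.5 and 92.8 CPM in ovary and 7.07 and 9.56 CPM in testis, 8.78-fold higher in ovary (edgeR adjusted p 0.000875). cdk2ap2 was female-biased, with 101 and 117 CPM against 30.6 and 24.9 CPM. cdk5rap2, a centrosome protein, had 83.6 and 81.2 CPM in ovary and 138 and 125 CPM in testis, and its call was lost without either ovary or without testis replicate 1 (edgeR adjusted p 0.0880, 0.126 and 0.0907).

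In this class 5 of 10 tested genes were female-biased and 2 were male-biased (beside 28.5% and 36.7% of all genes). The other female-biased ones were aurkaip1, ccndbp1 and cdk5rap1, with folds of 2.98, 1.85 and 2.58. ccndbp1 did not pass without testis replicate 2 (edgeR adjusted p 0.0573), nor cdk5rap1 without ovary replicate 2 (0.0602) or testis replicate 1 (0.0583), nor either with library size scaling. cdk2ap1, cdk5rap3 and mad2l2 did not pass. The IDs with the symbols cdk5r1 and cdk5r2, activators of CDK5, were too low to test, at no more than 1 count in an ovary and 43 in a testis. ENSDARG00000045087 (cdk5r1) had 43 and 6 counts in the testes and 0 in both ovaries.

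Other genes of the pathway were described from a list chosen with earlier results of these data known. The symbol rule does not take them in, and the list holds 97 symbols. Of these, 85 were found in 87 rows and all were tested, with 45 female-biased (51.7%) and 20 male-biased (23.0%) genes and a median log2 fold change of -0.74, beside 28.5% and 36.7% of all genes. With library size scaling 28 were female-biased and 30 male-biased, beside 17.6% and 47.6% of all genes. Genes that activate CDK1 or hold the oocyte in meiotic arrest had the lowest median of the 5 groups (-1.42). In that group 7 of 10 rows were female-biased and 2 were male-biased. mos, the kinase of oocyte arrest, had 360 and 299 CPM in ovary and 3.73 and 2.93 CPM in testis. fbxo43 and fbxo5, both inhibitors of the APC/C, were 9.71-fold and 12.1-fold higher in ovary. spdya, an activator of CDK2 in mouse meiosis, did not pass (log2 fold change 0.35 ± 0.22, SE, edgeR adjusted p 0.193).

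Of the 19 APC/C and SCF genes, 9 were female-biased and 2 were male-biased (47.4% and 10.5%, beside 28.5% and 36.7% of all genes). fzr1b, a relative of cdc20 that activates the APC/C in G1, was 6.91-fold higher in testis, the opposite bias to cdc20. In the kinetochore and anaphase group 12 of 22 were female-biased and 4 were male-biased (54.5% and 18.2%). birc5b, a survivin gene and partner of Aurora B, had 328 and 386 CPM in ovary and 1.44 and 0.701 CPM in testis, and cdca8 and cdca9, of the same complex, were 6.84-fold and 15.9-fold higher in ovary. The kinetochore scaffold knl1 was 2.34-fold higher in testis.

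Replication genes had 12 of 16 rows female-biased and 3 male-biased (75.0% and 18.75%, beside 28.5% and 36.7% of all genes). Again copies of a gene split. mcm6, a subunit of the replicative helicase, had 537 and 331 CPM in ovary and 5.83 and 14.5 CPM in testis for ENSDARG00000033231, and 2.43 and 4.09 CPM against 260 and 430 CPM for ENSDARG00000057683. cks2, a CDK subunit, split in the same way, with 80.7 and 70.6 CPM in ovary and 13.3 and 11.98 CPM in testis for ENSDARG00000117089, and 15.9 and 17.1 CPM against 134 and 160 CPM for ENSDARG00000071410. The licensing factor cdt1 and its inhibitor gmnn were 16.3-fold and 13.8-fold higher in ovary. The proliferation marker mki67 had 743 and 814 CPM in ovary and 519 and 659 CPM in testis and did not pass (log2 fold change -0.40 ± 0.33, SE, edgeR adjusted p 0.322).

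The E2F and Rb group was the only one of the 5 with more male-biased than female-biased genes, 9 against 5 of 20 (45.0% and 25.0%). Its median log2 fold change was 0.57. Of all tested genes 36.7% were male-biased and 28.5% female-biased, with a median of 0.45, so the group stood near all genes. e2f7, a repressor of E2F targets, had 0.423 and 0.335 CPM in ovary and 47.7 and 47.7 CPM in testis, and its relative e2f8 was 10.5-fold higher in testis. mybl1, needed for meiosis in mouse spermatocytes, had 9.56 and 6.17 CPM against 111 and 161 CPM. foxm1, which switches on cyclin B genes in dividing cells, had 91.5 and 107 CPM in ovary and 371 and 857 CPM in testis. In contrast, rb1 was 3.71-fold higher in ovary.

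**Figure D4:**
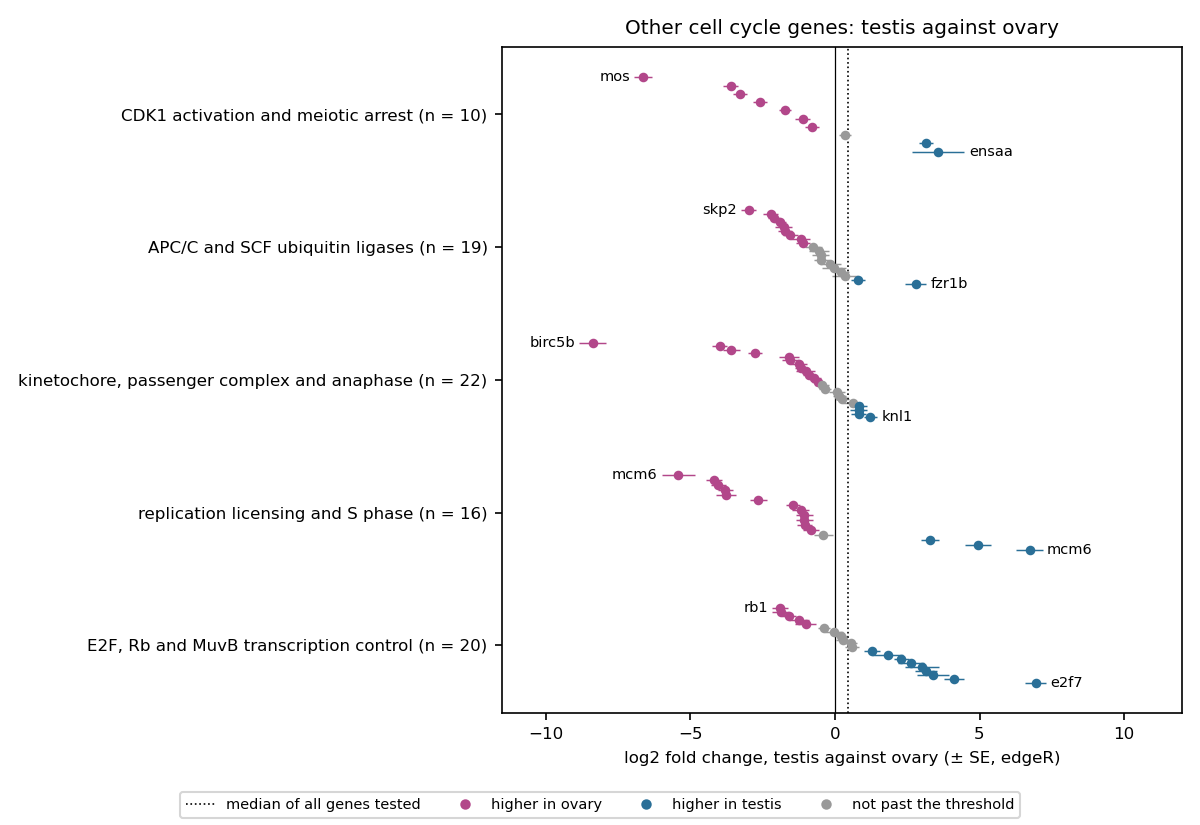
Log2 fold change of testis against ovary for 87 other cell cycle genes in 5 groups, with bars of 1 SE, colours for the edgeR call at an adjusted p under 0.05, and the median of all tested genes dotted. The most female-biased gene is birc5b (-8.37), the most male-biased is e2f7 (6.94), and copies of mcm6 lie at both ends of the replication group.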

How the data were processed

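Gonad RNA of 2 female and 2 male fish was depleted of ribosomal RNA and made into stranded libraries, per the labels. The study's methods mention polyadenylated RNA for most adult libraries, and whether that covers these 4 is not stated. The deposited values are raw read counts per Ensembl gene, not normalized. The authors aligned reads with HISAT2 2.0.5 to GRCz11, removed duplicates with SAMtools 1.5, which can lower abundant genes, and counted reads on the stated strand with HTSeq 0.9.1. Reads shared by near-identical copies may be lost, so values of duplicated genes are uncertain. Gene symbols were looked up by Ensembl ID and were found for 29201 of 32520 rows. Coordinates and sequences were not used here.

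Genes were filtered with filterByExpr, which left 21815, scaled by TMM and tested with edgeR 4.0.16 (R 4.3.3, limma 3.58.1) by its quasi-likelihood test, testis against ovary. P-values were adjusted by Benjamini-Hochberg over all genes, and a log2 fold change above 0 is a higher level in testis. SE is the log2 fold change divided by the square root of F. Intervals cover counting error only. Each library came from 1 fish, and per the study's methods the adults of a group shared a tank, so p-values measure the spread between fish of that tank. Replicates differed by far more than sampling noise (chi-square divided by its degrees of freedom, ovary 73.6 and testis 37.1). In simulated counts for 21815 genes, 200 were changed, as many up as down, and all genes shared 1 value of the spread. There edgeR recovered 35 of 100 genes changed by 2 and 98 of 100 changed by 4 on the log2 scale, with 2 false calls. In the real counts 65.2% of genes were called, so these rates need not hold for them. Pandas 2.3.3, scipy 1.17.1 and matplotlib 3.10.9 (Python 3.11.15) were used for single genes and figures.

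The text names a fixed list of well-known members and, per class, the 2 with the largest change in each direction among those past the threshold, with sexes that do not overlap and a mean log2 CPM of at least 2. Others complete a class. A gene with 1 to 3 counts in the ovaries was given as a pooled ratio with its interval, not as the planned lower bound against 3 counts. The members and lists were chosen with earlier results of these data known. Alternatives were other scalings, filters and thresholds, DESeq2 1.42.0, thinned counts, a replicate block and each library left out. A member that the counts include is not reported here by name.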

Additional observations from a re-analysis of the deposited data

How the results depend on the processing

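None of the 64 called members changed direction under any alternative in which it was fitted. The number of female-biased members ran from 28 to 42 and that of male-biased members from 16 to 33. Library size scaling moved the split most, with 28 of the 41 female-biased members still called and 10 new male-biased members, and it lowered the female-biased genes of the pathway list from 45 to 28. A threshold of 0.01 left 33 and 16 members, and DESeq2's Wald test gave 42 and 24. With each library left out the lone sample is assumed to vary like the other group. The counts then ran from 36 to 39 and from 17 to 21 members and from 34 to 39 and from 16 to 19 pathway genes, and 33 of the 41 and 15 of the 23 calls were kept in all 4 fits.

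Genes that had not passed changed sign. Such changes were listed only for the 52 tested members of the fixed list or with the largest changes. Other members that had not passed were not examined for this, and the median of all genes rose by 0.74 with library size scaling. With library size scaling the log2 fold change was 0.62 for cdc25d, 0.045 for ccnd1, 0.41 for cdk1, 0.14 for cdk6, 0.54 for bub1 and 0.45 for bub1ba. With at least 10 counts in every library it was 0.086 for cdk1, 0.22 for bub1 and 0.13 for bub1ba. For ttk it was -0.075 with DESeq2 size factors, -0.049 without a filter, -0.0067 with the replicate block and -0.075 with DESeq2's test. For cdc25d it was 0.27 with the block and 0.057 with thinned counts. With 1 library left out, ccnb3 ran from -0.12 to 0.29, cdc25d from -1.05 to 1.83 and ttk from -0.22 to 0.18. The cause was not tested.

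The labels do not say that replicate numbers pair fish, and same-numbered libraries had a correlation of -0.03 in their deviations from the group means. With the replicate block 39 members were female-biased and 21 male-biased. The legacy quasi-likelihood fit, chosen after seeing the data, gave 41 and 23. Depth limits the folds of genes with 0 to 3 counts in the ovaries.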
